A study of Mus musculus with 9 samples.

Results

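The clustered histone genes encode the linker histone H1 and the core histones H2A, H2B, H3 and H4, and they were taken as every gene whose name begins with Hist1h, Hist2h, Hist3h or Hist4. The deposited table held 65 such genes among 16537 genes in all, after its transcripts were summed by gene (66 of 21388 transcripts). They comprised 5 H1, 17 H2A, 18 H2B, 12 H3 and 13 H4 genes. In the build of the files, mm10, 51 of them lie in the large cluster on chromosome 13 (chr13:21715763-23934156), 10 on chromosome 3 (chr3:96219916-96270192), 3 on chromosome 11 (chr11:58948911-58956674) and 1, Hist4h4, on chromosome 6 (chr6:136801553-136804431).

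RNA was sequenced from bone marrow cells of FVB/NJ mice, an inbred strain, in 9 libraries that form 3 groups of 3. The median LP group holds leukemic progenitors (LP) of the PML-RAR genotype taken at the median phase of disease, and the early LP group holds leukemic progenitors of the same genotype taken at the early phase. The HPC group holds hematopoietic progenitor cells of wild type mice at postnatal day 42. PML-RAR is the fusion protein of acute promyelocytic leukemia. The labels give neither the promoter that drives the fusion, nor the age of the leukemic mice in days, nor the surface markers of any sort, and no label ties the 3 libraries of any group to different mice. The p-values therefore measure only the variation among the libraries sequenced, which may be technical.

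Most histone protein is made in S phase, when a dividing cell must package the DNA it has just copied. The messenger RNAs of the clustered genes are unusual in that they carry no poly(A) tail. They end just after a short stem-loop, which is bound by the stem-loop binding protein Slbp and cut with the help of the U7 small nuclear RNP. Some clustered genes also give longer transcripts that run past the stem-loop to an ordinary poly(A) signal, and such tailed forms are known from cells that have left the cycle. The libraries were made with the TruSeq RNA kit, which in its usual form selects tailed RNA. The labels give the input as total RNA and do not describe a selection step.

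The stem-loop was looked for in the annotated transcripts of the members, as the letters GGNNC, then TTTTN, then AGNNCC in 1 run on the transcript strand, because it marks the tailless end. Of 64 members with a matched transcript in GENCODE release M21, which is on GRCm38, the assembly also called mm10, 42 held it, against 0.0886% of other protein-coding transcripts (52 transcripts). A set of 7 shows the 6 forms found, with the 16 bases of the stem-loop in capitals and up to 7 bases of flank on each side:
Hist1h1c: tccaaaaGGCTCTTTTCAGAGCCaccactc
Hist1h2bg: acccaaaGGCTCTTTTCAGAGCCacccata
Hist1h2bb: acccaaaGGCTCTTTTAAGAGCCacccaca
Hist2h2ac: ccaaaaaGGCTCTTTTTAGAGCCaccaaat
Hist1h4m: aactaaaGGCCCTTTTCAGGGCCatc
Hist1h4i: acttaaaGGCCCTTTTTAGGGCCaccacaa
Hist1h4b: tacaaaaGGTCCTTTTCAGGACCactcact

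The form seen in Hist1h1c and Hist1h2bg was the most frequent, in 25 members of the H1, H2A, H2B and H3 types. The form of Hist1h2bb was in 5 members, and that of Hist2h2ac in 1. The 11 H4 members with a stem-loop carried other stems, 7 as in Hist1h4m, 2 as in Hist1h4i and 2 as in Hist1h4b. The stem therefore separated H4 from the other types in every member in which it was found.

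The deposited libraries held 20.6 M to 28.4 M fragments, as recovered from the whole-number steps in the values, and very few of them came from these genes. The members together had 2774, 1930 and 942 fragments in the 3 median LP libraries, 2369, 3549 and 2782 in the early LP libraries and 3530, 2648 and 4879 in the HPC libraries. Their share was between 0.00371% of a library (median LP 3) and 0.0181% (HPC 3), so most single members rest on few fragments. Levels are given as CPM, the deposited estimated counts scaled to a common library total after TMM scaling, for 1 gene across libraries. FPKM, which is per length, is used wherever 2 genes are compared. Near-identical copies share fragments: the counts of 55 members were whole numbers of fragments in at most 3 libraries, and those of 9 members were whole in all 9, so reads were split between copies for most members. In 1 fit over all genes 12837 passed the filter on low counts, among them 51 members. The other 14 (1 H2A, 5 H2B and 8 H4 genes) had at most 17.3 fragments in any library.

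The label of the cells was checked on marker genes. The neutrophil granule enzyme gene Mpo had a mean of 16903 CPM in median LP, 21887 CPM in early LP and 9094 CPM in HPC. Cd34, a marker of stem and progenitor cells, had 1.43, 3.49 and 272 CPM in the same order of groups, and Klf1, which encodes an erythroid transcription factor, had 0.561, 0.658 and 129 CPM. Other markers of the same lists did not go this far or went the other way. The stem cell factor receptor gene Kit had 247, 251 and 437 CPM, and the transferrin receptor gene Tfrc, in the erythroid list, had 180, 181 and 438 CPM. Ly6a, in the stem and progenitor list, had 1.435, 1.84 and 1.11 CPM. It was called higher in early LP than in HPC (log2 0.71), where the other 5 of the 6 were called lower. The 10 erythroid markers summed to 312 to 404 CPM in median LP, 192 to 210 CPM in early LP and 3567 to 3881 CPM in HPC. The alpha globin gene Hba-a1, one of the 2 erythroid markers called higher in median LP than in early LP, had 137, 201 and 131 CPM in median LP, against 2.87, 5.69 and 2.72 CPM in early LP. In HPC it had 36.9, 19.4 and 22.7 CPM. Against HPC it was called higher in median LP (log2 2.57) and lower in early LP (-2.81). In median LP against early LP, 3 of the 8 late neutrophil markers were called lower, namely Ltf (log2 -1.62), Mmp8 (-1.89) and Mmp9 (-1.84). Another 2 of the 8, S100a8 (log2 0.30) and S100a9 (0.62), had every median LP library above every early LP library. Neither was called by edgeR, and DESeq2 called 1 late neutrophil marker higher. Of the 6 stem and progenitor markers 2 were called lower, Cd34 (-1.28) and Eng (-1.41). Of 3 tested T and NK cell markers 2 were called lower, and of 9 tested erythroid markers 1 was called lower and 2 higher. The 5 promyelocyte markers all had every median LP library below every early LP library (log2 -0.39 to -0.09). None of these 5 was called by edgeR, with 4 lower at an unadjusted p under 0.05 and 4 called lower by DESeq2. Markers thus moved in both directions between the LP groups in which the clustered histone genes differed. The part of such differences in cell makeup in the histone results was not tested. In bulk RNA, fewer cells of a type (such as cells in S phase) and less RNA per cell cannot be told apart.

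Summed over all 65 members, the level was 107, 84.0 and 37.9 CPM in the median LP libraries, 122, 129 and 143 CPM in the early LP libraries and 139, 106 and 172 CPM in the HPC libraries. Median LP 3 was the lowest library of all, and median LP 1 was the highest of its group and reached the lowest HPC library. Median LP did not overlap early LP. The mean was 76.3 ± 35.1 CPM in median LP, 131 ± 10.9 CPM in early LP and 139 ± 33.0 CPM in HPC (SD, n = 3 each), so the median LP libraries also spread most around their mean. No test was made on sums.

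The types did not carry this evenly. H2A summed to 21.1, 18.2 and 9.34 CPM in median LP, 31.8, 38.9 and 36.1 CPM in early LP and 32.2, 26.9 and 46.9 CPM in HPC. H2B summed to 21.9, 18.6 and 9.38 CPM in median LP, 29.9, 29.9 and 36.5 CPM in early LP and 43.5, 31.2 and 47.1 CPM in HPC, and H3 to 9.39, 7.33 and 3.77 CPM in median LP, 12.8, 16.5 and 15.0 CPM in early LP and 10.5, 11.2 and 16.6 CPM in HPC. For these 3 types every median LP library lay below every library of both other groups. H1 summed to 45.0, 30.9 and 9.33 CPM in median LP, 34.9, 33.9 and 42.8 CPM in early LP and 41.8, 26.5 and 45.7 CPM in HPC, and H4 to 9.52, 8.996 and 6.12 CPM, 12.1, 9.46 and 12.5 CPM, and 10.6, 9.75 and 15.4 CPM in the same order of groups. H1 overlapped in all 3 groups, and H4 in median LP overlapped early LP and stayed just under HPC.

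**Figure D1:**
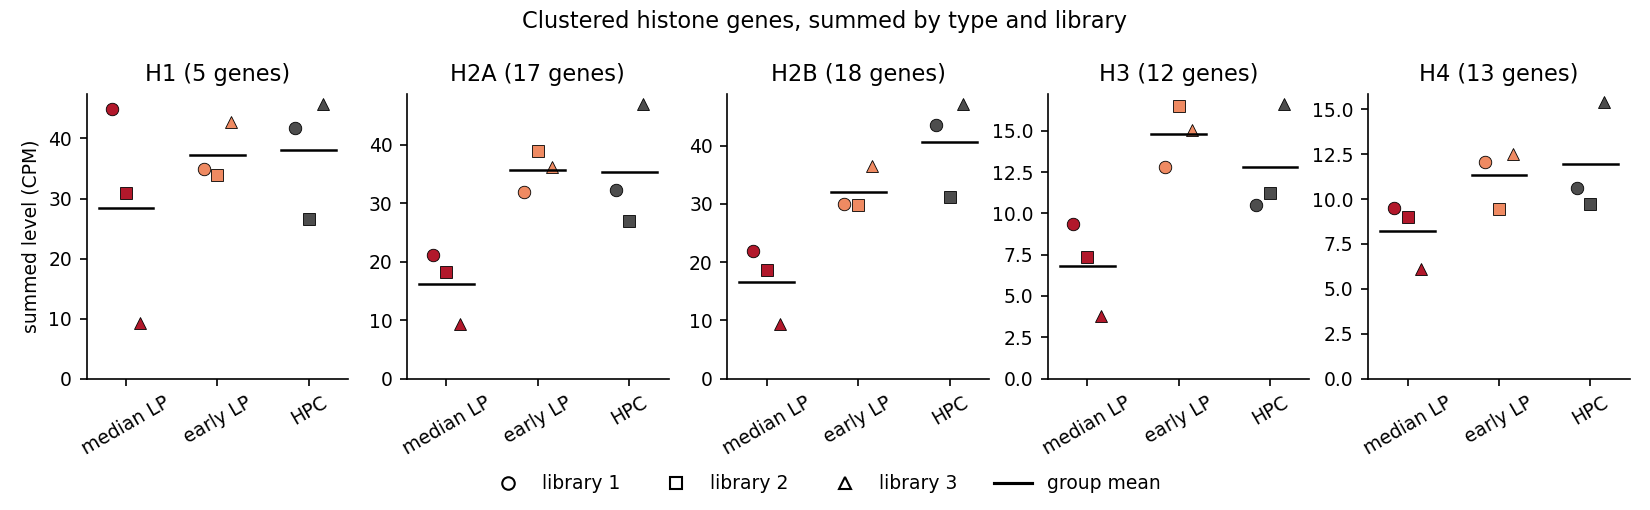
Summed level (CPM) of the clustered histone genes of each type in each library, with median LP, early LP and HPC from left to right, libraries 1 to 3 as circle, square and triangle and the group mean as a bar. For H2A, H2B and H3 the 3 median LP libraries lie under all others, while H1 in median LP runs between 9.33 and 45.0 CPM.

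The spread of H1 came with 1 gene. Hist1h1c, which encodes the linker histone H1.2 and whose annotated transcript runs 840 bases past the stem-loop to a poly(A) signal, had 39.5, 27.0 and 7.27 CPM in median LP, 19.3, 18.4 and 25.9 CPM in early LP and 28.3, 16.9 and 29.3 CPM in HPC. Its groups overlapped, and it was called in none of the 3 comparisons (log2 change 0.22 ± 0.43 SE for median LP against early LP). Without it the log2 ratio of the mean H1 sum in median LP to that in early LP was -2.07, against -0.39 with it. Per length, H1 made up 14.1%, 11.4% and 6.85% of the members' summed FPKM in median LP 1 to 3, 6.42 to 8.85% in early LP and 7.25 to 10.1% in HPC. In CPM, which gives longer transcripts more weight, the shares were 42.1%, 36.8% and 24.6% in median LP, 26.3 to 29.95% in early LP and 25.1 to 30.1% in HPC. In either unit median LP 1 and 2 had the highest H1 shares of the 9 libraries and median LP 3 was under its group's other 2.

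In the comparison of median LP with early LP, 23 of the 51 tested members fell and none rose, where 0.997% of all genes tested were called lower and 1.48% higher (edgeR quasi-likelihood test, Benjamini-Hochberg adjusted p under 0.05). At an unadjusted p under 0.05 the same test had 38 lower and 2 higher, and the DESeq2 test called 27 lower and 1, Hist3h2a, higher. At the level of the libraries, 38 members had every median LP library below every early LP library and 2 had every one above, against 13.9% and 12.4% of all genes tested. The median log2 change of the 51 was -1.57, against 0.00 for all genes tested, and 45 of the 51 had a negative change. By type, 3 of 5 H1, 10 of 16 H2A, 6 of 13 H2B, 4 of 12 H3 and none of 5 H4 genes fell. The H4 genes had a median log2 change of -0.81, with 3 lower at an unadjusted p under 0.05 and 1 called by DESeq2, and whether H4 differed from the other types was not tested. With 1 library fewer the count dropped: it was 11, 12 and 11 without median LP 1, 2 and 3, and 12, 9 and 13 without early LP 1, 2 and 3.

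Against HPC, 37 of the 51 members fell in median LP and none rose, where 73.8% of all genes tested were called, 37.7% lower and 36% higher. In 35 members every median LP library was below every HPC library, against 39% of all genes tested. None was higher at an unadjusted p under 0.05 or by DESeq2. Their median log2 change was -1.36, against -0.04 for all genes. By type, 4 of 5 H1, 12 of 16 H2A, 10 of 13 H2B, 8 of 12 H3 and 3 of 5 H4 genes fell. In early LP against HPC, 3 members fell and 1 rose, where 73.2% of all genes tested were called, 37.9% lower and 35.3% higher, and the median log2 change of the members was 0.07. Both comparisons with HPC use the same 3 HPC libraries, and both comparisons of median LP use the same 3 median LP libraries. In all, 12 of the 51 members were called in no comparison. A change that misses the threshold does not show equal levels: the median standard error of the members' log2 change was 0.33 for early LP against HPC.

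**Figure D2:**
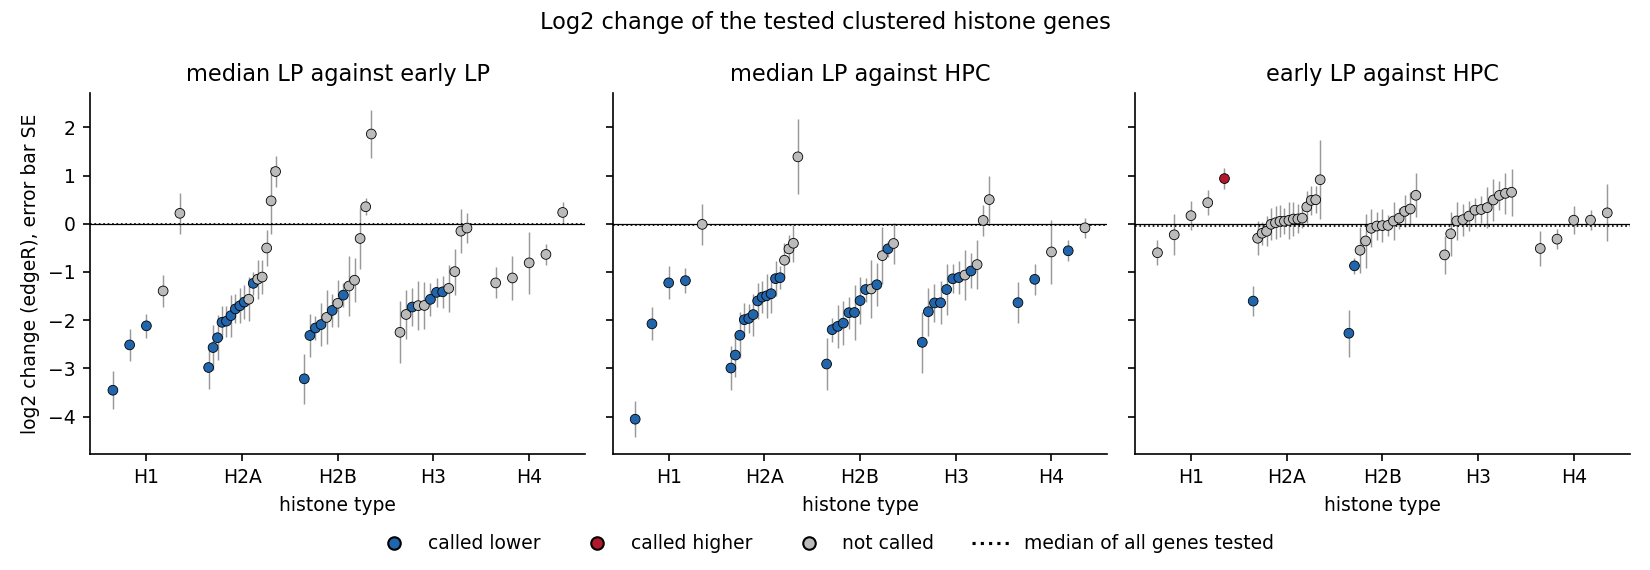
Log2 change with its standard error for each of the 51 tested members, sorted within its histone type, for median LP against early LP, median LP against HPC and early LP against HPC (blue called lower, red called higher, grey not called; the dotted line is the median of all genes tested). In both comparisons of median LP most members lie well below 0, with 23 and 37 called lower, and in early LP against HPC they lie around 0, with 3 called lower and 1 higher.

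Among the linker histones, Hist1h1a, the H1.1 gene, had 0.347, 0.218 and 0.121 CPM in median LP, 2.31, 2.32 and 3.08 CPM in early LP and 4.01, 2.55 and 5.06 CPM in HPC. Median LP was under the other groups in every library, and early LP overlapped HPC. The gene fell by 3.45 ± 0.39 on the log2 scale against early LP (adjusted p = 0.00116) and by 4.05 ± 0.37 against HPC (adjusted p = 1.18e-06), both in the edgeR fit. Its GENCODE transcript of 741 bases shares no stretch of 50 bases with a GENCODE transcript of another gene. The counts of Hist1h1a were whole in all 9 libraries, so its reads were not split with a copy.

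Hist1h1b, the H1.5 gene, had 0.848, 0.435 and 0.282 CPM in median LP, 3.33, 2.72 and 2.83 CPM in early LP and 2.36, 1.59 and 2.60 CPM in HPC. It also did not overlap, and fell by 2.51 ± 0.33 (log2) against early LP (edgeR adjusted p = 0.00267) and by 2.08 ± 0.34 against HPC (adjusted p = 0.000152). Its counts too were whole in every library. Hist1h1d, the H1.3 gene and the longest tested member at 2977 bases, had 2.65, 1.80 and 0.617 CPM in median LP, 4.67, 4.31 and 4.46 CPM in early LP and 3.64, 3.47 and 4.81 CPM in HPC. Its median LP libraries lay under all others, and it fell against HPC (log2 -1.23 ± 0.34) but missed the threshold against early LP (log2 -1.39 ± 0.34, edgeR adjusted p = 0.0571).

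Hist1h1e, the H1.4 gene, was the single member called higher in early LP than in HPC. It had 1.60, 1.47 and 1.04 CPM in median LP, 5.28, 6.13 and 6.54 CPM in early LP and 3.48, 2.01 and 3.87 CPM in HPC. The 3 groups separated fully, with early LP on top. Its log2 change was -2.12 ± 0.25 for median LP against early LP (edgeR adjusted p = 0.00135), -1.18 ± 0.26 for median LP against HPC (adjusted p = 0.00152) and 0.94 ± 0.22 for early LP against HPC (adjusted p = 0.00254). The files place it in 1 locus with the H2B gene Hist1h2be (chr13:23583670-23622558), so reads of either could be given to the other. Hist1h2be had 0.625, 0.842 and 0.611 CPM in median LP, 1.97, 1.66 and 2.18 CPM in early LP and 1.98, 1.38 and 2.01 CPM in HPC, with no overlap of median LP with the other groups. It fell against early LP (log2 -1.48 ± 0.25) and against HPC (log2 -1.36 ± 0.25), and its early LP libraries overlapped those of HPC.

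Among the H2B genes Hist1h2bg stood at the highest FPKM of all members over the 9 libraries, with 8.08 ± 2.57 FPKM in median LP, 36.2 ± 5.44 FPKM in early LP and 37.6 ± 10.5 FPKM in HPC (SD, n = 3 each). In CPM it had 3.07, 4.35 and 2.20 in median LP, 13.5, 13.3 and 16.3 in early LP and 19.2, 10.9 and 14.0 in HPC. Median LP stayed under both other groups in every library. The gene fell by 2.16 ± 0.25 (log2) against early LP (edgeR adjusted p = 0.00116) and by 2.20 ± 0.25 against HPC (adjusted p = 6.31e-06).

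Hist1h2bb, another H2B gene, had 0.270, 0.108 and 0.0745 CPM in median LP, 1.40, 1.29 and 1.84 CPM in early LP and 0.909, 0.762 and 1.93 CPM in HPC. It had the most negative change of the H2B genes, falling by 3.22 ± 0.52 (log2) against early LP and by 2.91 ± 0.53 against HPC. Hist1h2bk had 1.41, 0.498 and 0.428 CPM in median LP, 1.46, 1.67 and 2.20 CPM in early LP and 1.49, 1.25 and 2.93 CPM in HPC. Hist1h2bl had 0.529, 0.538 and 0.147 CPM in median LP, 1.56, 0.748 and 1.505 CPM in early LP and 1.31, 0.674 and 1.69 CPM in HPC. Hist1h2bk and Hist1h2bl fell against HPC (log2 -1.26 ± 0.45 and -1.59 ± 0.49) and were not called against early LP. The call for Hist1h2bk was lost without median LP 2 (log2 -1.01), without median LP 3 (-0.98) or without HPC 3 (-0.79).

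A pair of H2B genes took another course. Hist1h2bc, whose deposited transcript of 728 bases is spliced over a longer locus (chr13:23684199-23692480), had 9.63, 6.34 and 1.67 CPM in median LP, 1.34, 1.77 and 1.74 CPM in early LP and 6.72, 6.16 and 10.6 CPM in HPC. Early LP was under every HPC library, while median LP ranged over both, with median LP 3 at the early LP level. It fell in early LP against HPC by 2.27 ± 0.49 (log2, edgeR adjusted p = 0.00127), and its log2 change in median LP against early LP was 1.86 ± 0.50 (adjusted p = 0.085). Without median LP 3 that change was 2.30 and was called. Hist2h2be, with 3.89, 3.31 and 3.06 CPM in median LP, 2.67, 3.05 and 2.31 CPM in early LP and 4.24, 4.98 and 5.49 CPM in HPC, fell against HPC in both LP groups, by 0.52 ± 0.17 (log2) in median LP and by 0.87 ± 0.17 in early LP. HPC lay above both, and every median LP library lay above every early LP library, by little (log2 0.35 ± 0.18, not called). Without HPC 3 the call in median LP against HPC was lost (log2 -0.43).

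Among the H2A genes, Hist2h2aa1 had the highest FPKM, with 12.4 ± 7.60 FPKM in median LP, 26.4 ± 3.34 FPKM in early LP and 20.6 ± 7.55 FPKM in HPC (SD, n = 3 each). In CPM it had 6.99, 4.30 and 2.09 in median LP, 8.80, 10.5 and 9.70 in early LP and 6.72, 5.03 and 10.9 in HPC. Median LP lay under early LP without overlap, yet no call was made (log2 -1.11 ± 0.35, edgeR adjusted p = 0.138). The files put it in 1 locus with its copy Hist2h2aa2. All 50-base stretches of Hist2h2aa2 occur in another transcript, as do 89.4% of those of Hist2h2aa1. How the reads divide between these 2 is therefore uncertain.

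Hist1h2ac had 0.649, 0.715 and 0.132 CPM in median LP, 3.32, 3.62 and 5.04 CPM in early LP and 4.59, 2.22 and 5.28 CPM in HPC. It fell by 2.98 ± 0.45 (log2) against early LP (edgeR adjusted p = 0.0055) and by 2.99 ± 0.45 against HPC (adjusted p = 7.33e-05), with no overlap of median LP with either. Hist1h2ao had 1.54, 1.502 and 0.692 CPM in median LP, 4.26, 5.84 and 5.07 CPM in early LP and 3.03, 2.50 and 5.19 CPM in HPC, and fell by 2.02 ± 0.32 and by 1.52 ± 0.33. Hist1h2ah had 0.254, 0.290 and 0.267 CPM in median LP, 0.962, 1.39 and 1.08 CPM in early LP and 1.01, 0.791 and 1.48 CPM in HPC, and fell by 2.04 ± 0.35 and by 1.99 ± 0.35. Both were under the other groups in every median LP library. The call for Hist1h2ah against early LP was lost without median LP 1 (log2 -1.98) or without early LP 2 (-1.88).

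Hist1h2ag had 1.43, 0.908 and 0.438 CPM in median LP, 1.91, 2.93 and 1.47 CPM in early LP and 1.98, 2.21 and 3.55 CPM in HPC, and was called against HPC alone (log2 -1.45 ± 0.39). Hist1h2af had 1.39, 0.418 and 0.660 CPM in median LP, 0.830, 1.28 and 1.44 CPM in early LP and 0.958, 1.26 and 1.15 CPM in HPC, overlapped throughout and was not called. Its 50-base stretches were shared with other transcripts in 79.7% of cases.

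Hist3h2a, the H2A gene of the small chromosome 11 cluster, followed the course of Hist1h2bc. It had 5.32, 4.05 and 2.17 CPM in median LP, 1.49, 2.14 and 1.85 CPM in early LP and 4.99, 4.62 and 6.96 CPM in HPC. Every early LP library lay below every other library, and median LP overlapped HPC. It fell in early LP against HPC by 1.60 ± 0.30 (log2, edgeR adjusted p = 0.000482). Its log2 change in median LP against early LP was 1.08 ± 0.31 (adjusted p = 0.107), and without median LP 3 it was 1.36 and was called. Its counts were whole in every library.

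The H3 genes lay at low levels. Hist1h3g had 0.689, 0.712 and 0.473 CPM in median LP, 1.07, 1.81 and 2.15 CPM in early LP and 0.973, 1.55 and 1.61 CPM in HPC. Hist1h3i had 0.721, 0.442 and 0.196 CPM in median LP, 1.57, 1.43 and 1.47 CPM in early LP and 0.994, 1.16 and 1.97 CPM in HPC. In both, every median LP library was under all others, and both fell against early LP (log2 -1.41 ± 0.33 and -1.73 ± 0.40, edgeR adjusted p = 0.0466 each) and against HPC (log2 -1.12 ± 0.33 and -1.64 ± 0.40). Their calls against early LP were near the threshold. That of Hist1h3g was lost without median LP 1, 2 or 3 (log2 -1.50, -1.49 and -1.26) and without early LP 2 or 3 (-1.36 and -1.20), and that of Hist1h3i without median LP 2 or 3 (-1.72 and -1.36) and without early LP 1, 2 or 3 (-1.69, -1.76 and -1.74). Hist1h3e had 0.326, 0.153 and 0.388 CPM in median LP, 0.952, 1.01 and 1.27 CPM in early LP and 0.716, 0.591 and 1.77 CPM in HPC, and fell against HPC (log2 -1.82 ± 0.50) but was not called against early LP (log2 -1.88 ± 0.50). Hist1h3d had 0.794, 0.881 and 0.208 CPM in median LP, 1.03, 2.06 and 1.69 CPM in early LP and 1.13, 0.489 and 1.74 CPM in HPC, overlapped between median LP and HPC and was not called.

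Of the H4 genes, which all encode the same protein, 8 were too low to test. Hist1h4a, one of those 8, had 0.166, 0.00698 and 0.00107 CPM in median LP, 0.185, 0.343 and 0.472 CPM in early LP and 0.280, 0.137 and 0.333 CPM in HPC. Hist1h4m, the highest H4 gene in FPKM over all libraries, had 1.59, 1.02 and 0.767 CPM in median LP, 2.74, 2.26 and 2.94 CPM in early LP and 2.14, 1.78 and 3.58 CPM in HPC. Its median LP libraries lay under all others, and it fell against HPC (log2 -1.15 ± 0.32) but missed the threshold against early LP (log2 -1.23 ± 0.32, edgeR adjusted p = 0.0769). Hist1h4i had 4.75, 4.57 and 2.81 CPM in median LP, 3.63, 3.19 and 3.53 CPM in early LP and 3.62, 4.26 and 4.998 CPM in HPC. It overlapped everywhere and was not called, with log2 changes of 0.23 ± 0.21 and -0.08 ± 0.20 in median LP against early LP and HPC. Hist1h4n, the shortest tested member at 312 bases, had 0.238, 0.442 and 0.177 CPM in median LP, 0.576, 0.308 and 0.656 CPM in early LP and 0.255, 0.143 and 0.897 CPM in HPC and was not called.

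The annotated 3′ end sorts the members in a way the choice of genes did not use. It was read from the longest matched GENCODE transcript, not from the deposited transcript on which fragments were counted. The deposited transcript was coding sequence alone for 30 members, 19 of them tested. A poly(A) signal (AATAAA or ATTAAA in the last 40 bases, on the transcript strand) was in 15 of the 64 members matched to GENCODE, among them Hist1h1c, Hist3h2a, Hist2h2be and Hist1h4i. A further 19 ended within 60 bases of the stem-loop, 12 ran on past it with no signal, and 18 had neither, 10 of which are annotated as coding sequence alone, where no 3′ end could be searched. In median LP against early LP, 3 of 11 tested members with a poly(A) signal fell, with a median log2 change of -0.64. These were Hist1h2ae (log2 -1.24), Hist1h2be (-1.48) and Hist1h2br (-1.80). Of the 11, 7 had a negative change, and Hist1h1c, Hist3h2a, Hist2h2be and Hist1h4i, named above, lay above 0. Of those that end near the stem-loop 6 of 16 fell (median -1.59), of those that run on 4 of 10 (median -1.41) and of those with neither 10 of 14 (median -1.71). The difference between these classes was not tested.

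In summed level the classes differed by library. The 15 members with a poly(A) signal summed to 61.7, 47.3 and 20.4 CPM in median LP, 43.0, 40.7 and 49.7 CPM in early LP and 57.4, 41.9 and 63.2 CPM in HPC. Median LP held both the lowest of these 9 values and one of the highest. The 19 members that end near the stem-loop summed to 16.2, 13.1 and 6.64 CPM in median LP, 27.8, 31.9 and 31.8 CPM in early LP and 22.03, 19.0 and 37.4 CPM in HPC, with median LP under all other libraries. Genes of 1 class did not all move alike: Hist1h2bc was in the class with neither feature and stood apart from the rest of it, at a log2 change of 1.86.

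**Figure D3:**
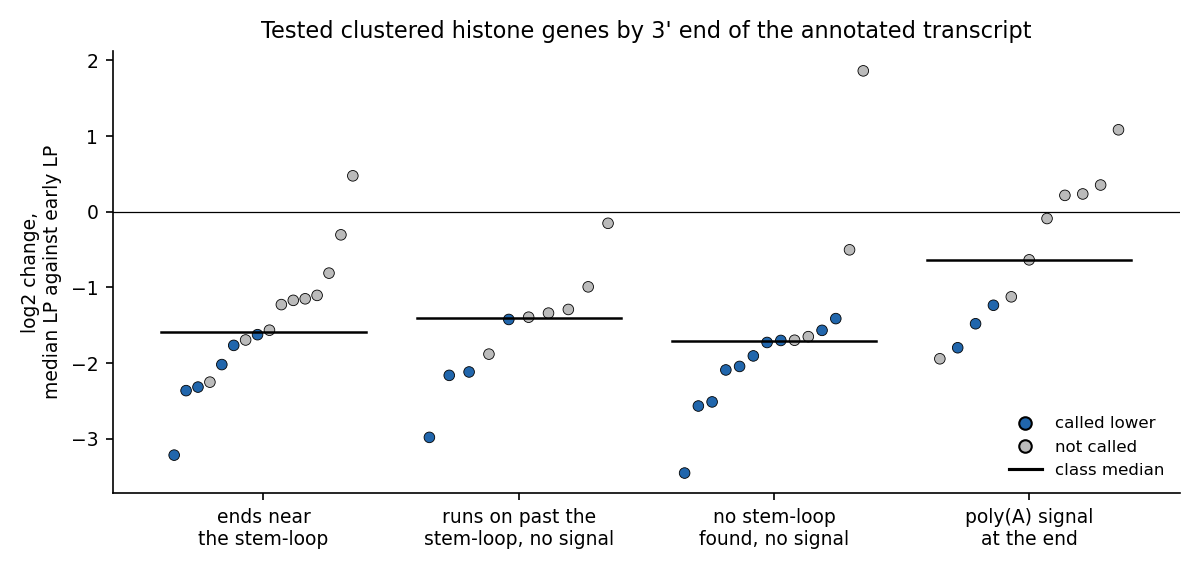
Log2 change in median LP against early LP of the tested members, by the 3′ end of the annotated transcript, with the class median as a bar (blue called lower, grey not called). The medians are -1.59, -1.41, -1.71 and -0.64 from left to right, and most of the points above 0 are in the poly(A) signal class. In that class 7 of 11 points lie below 0.

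Other RNAs without a poly(A) tail give a view of how much tailless RNA each library held. The RNA components of RNase MRP, RNase P and telomerase (Rmrp, Rpph1 and Terc) and the minor spliceosomal RNAs Rnu11 and Rnu12 had together 5, 7 and 3.9 fragments in median LP, 19, 20 and 16 in early LP and 3, 5 and 19 in HPC. Each early LP library held more of them than any other library apart from HPC 3, which was also the HPC library with the most histone fragments. The numbers are very small, and their part in the histone result was not tested. Among other genes of up to 800 bases, 4 of 536 were called lower and 6 higher in median LP against early LP. Among other genes of up to 25 CPM in early LP, 65 of 4961 were called lower and 85 higher.

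Many H2A and H2B genes stand head to head and share 1 stretch of promoter, which allows a comparison of neighbours. In 9 such pairs the starts lay at most 500 bases apart. The stretches of 3 pairs are shown on the plus strand, from the RefSeq promoter windows on GRCm38.p6, because the genes of the first 2 pairs took different courses and those of the last took the same one. Capitals mark TATAAA (the TATA box), CCAAT and ATTTGCAT (the octamer of H2B promoters) on either strand:
Hist1h2ac and Hist1h2bc, chr13:23683960-23684198: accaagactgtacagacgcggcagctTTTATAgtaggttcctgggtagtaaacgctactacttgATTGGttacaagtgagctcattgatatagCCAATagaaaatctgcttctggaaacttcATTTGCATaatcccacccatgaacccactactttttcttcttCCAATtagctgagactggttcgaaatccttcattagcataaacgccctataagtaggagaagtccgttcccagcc
Hist2h2ac and Hist2h2be, chr3:96220845-96221120: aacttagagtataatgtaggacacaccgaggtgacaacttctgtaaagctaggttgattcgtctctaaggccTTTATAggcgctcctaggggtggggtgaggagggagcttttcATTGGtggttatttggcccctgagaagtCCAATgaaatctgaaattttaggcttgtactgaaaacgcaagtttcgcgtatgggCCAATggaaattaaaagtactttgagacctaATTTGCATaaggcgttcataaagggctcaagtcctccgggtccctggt
Hist1h2ae and Hist1h2bg, chr13:23571221-23571399: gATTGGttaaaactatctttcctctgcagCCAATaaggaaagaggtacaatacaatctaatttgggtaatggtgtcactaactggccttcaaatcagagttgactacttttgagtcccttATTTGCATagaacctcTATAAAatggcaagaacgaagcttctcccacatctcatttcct

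Each of the 3 stretches held 1 TATA box and 1 octamer, with 3, 3 and 2 CCAAT boxes in the order shown. Across 239 bases, Hist1h2ac fell in median LP against early LP (log2 -2.98) while its neighbour Hist1h2bc was at 1.86 and not called. Across 276 bases, Hist2h2ac fell by 2.36 on the log2 scale, with 0.0415, 0.0871 and 0.125 CPM in median LP, 0.440, 0.557 and 0.425 CPM in early LP and 0.354, 0.399 and 0.575 CPM in HPC, while Hist2h2be was at 0.35 and not called. Hist2h2ac rested on few fragments, 1.08, 2 and 3.1 in median LP and 8.57, 15.4 and 8.27 in early LP. Across 179 bases, Hist1h2ae and Hist1h2bg both fell (log2 -1.24 and -2.16). Hist1h2ae had 1.21, 1.88 and 1.12 CPM in median LP, 3.66, 3.54 and 2.67 CPM in early LP and 3.06, 2.58 and 3.44 CPM in HPC. The difference within a pair was not tested.

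**Figure D4:**
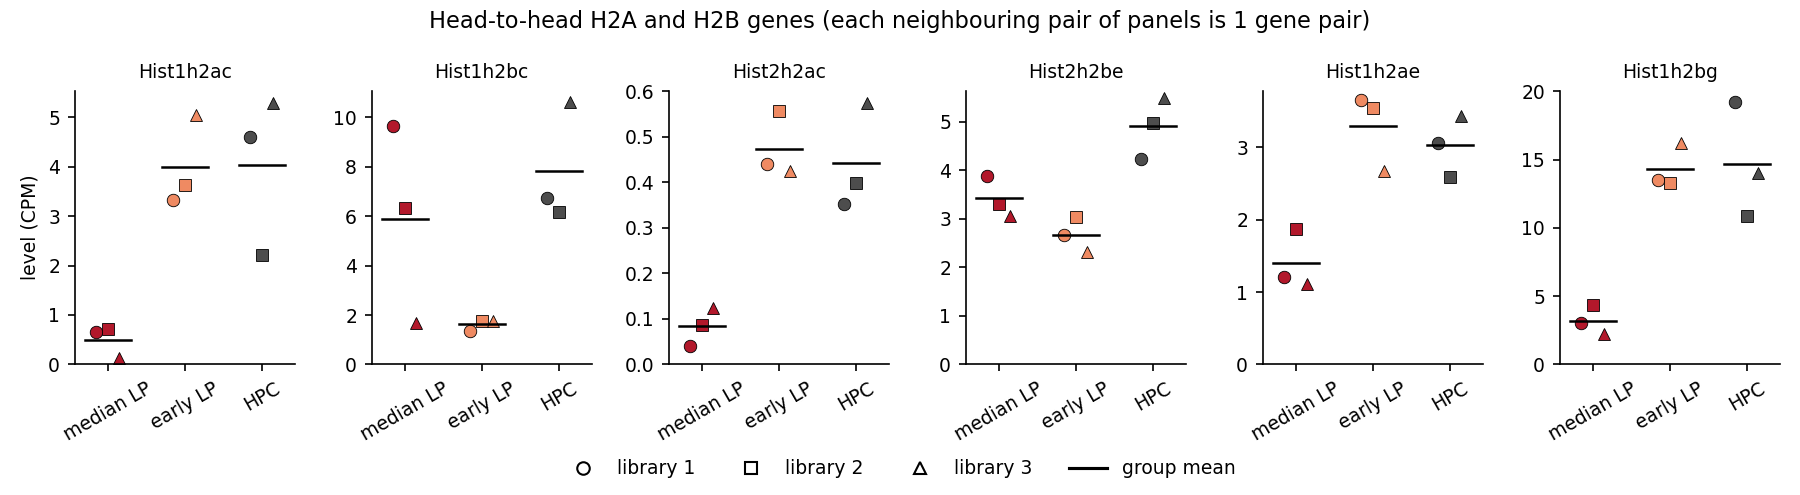
Level (CPM) by library of the genes of 3 head-to-head pairs, with median LP, early LP and HPC from left to right in each panel and the group mean as a bar. Each panel has its own axis, and levels are to be compared within a panel only. In Hist1h2ac, Hist2h2ac, Hist1h2ae and Hist1h2bg the 3 median LP libraries lie under the early LP libraries, and in Hist2h2be they lie above them.

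Over the RefSeq promoter windows, which run from 250 bases before to 50 after a start, 59 of the 65 members had at least 1 window. A member was counted as holding a motif if any of its windows held it, while other windows were counted singly. CCAAT, on either strand, was in 50 of these members, against 37.3% of 32753 other windows of the same length, and it was in each matched H1, H2A, H2B and H3 gene but in 25% of the 12 matched H4 genes. TATAAA was in 57.6% of the members, against 13.5% of the other windows. The octamer was in 46.7% of the H2B genes and 35.3% of the H2A genes, in none of H1, H3 or H4, and in 555 of the 32753 other windows. Matches of the 3 motifs were counted separately, and a match is not shown to be a site in use.

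Few genes of the lists that supply histones were called between the LP groups by edgeR, and a difference between the lists was not tested. The calls made in them were lost under several of the settings given below. In the list of S phase entry and DNA replication 3 of 40 were called (7.5%), against 2.48% of all genes tested. Of 11 tested histone genes outside the clusters 1 was called (9.09%), and of 25 tested histone chaperones and deposition factors none was. Of 23 tested genes for histone mRNA transcription and 3′ end formation, none was called by edgeR in median LP against early LP, where 2.48% of all genes tested were called. None had an unadjusted p under 0.05 or was called by DESeq2 either, and their median log2 change was -0.01. Slbp had 153, 145 and 149 CPM in median LP, 160, 157 and 162 CPM in early LP and 178, 176 and 173 CPM in HPC. It lay lower in both LP groups than in HPC, in small steps (log2 -0.23 ± 0.06 in median LP, edgeR adjusted p = 0.0028, and -0.14 ± 0.06 in early LP, adjusted p = 0.0461), and was not called between the LP groups (log2 -0.10 ± 0.06). Npat, the S phase activator of histone transcription at the histone locus body, had means of 57.2, 56.1 and 60.6 CPM in median LP, early LP and HPC, and Casp8ap2, a component of the same body, had 80.5, 84.4 and 88.7 CPM. Neither was called in any comparison.

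Against HPC the same list was called lower in 13 genes and higher in 2 in early LP, and lower in 13 and higher in 3 in median LP. That is 65.2% and 69.6% of the list called in either direction, against 73.2% and 73.8% of all genes tested. By direction, 56.5% of the list was called lower in each LP group, against 37.9% and 37.7% of all genes. The share called higher was 8.7% and 13.0%, against 35.3% and 36%. The most significant were Cpsf2 and Srrt, which act in 3′ end cleavage and in the link of the cap-binding complex to RNA processing. Cpsf2 had means of 108, 111 and 171 CPM and Srrt had 216, 227 and 357 CPM in median LP, early LP and HPC, and both fell in both LP groups (log2 -0.67 and -0.62 for Cpsf2, -0.73 and -0.65 for Srrt, in median and early LP). Snrpg, a core protein of small nuclear RNPs, was lower in both LP groups (log2 -0.92 and -0.76), as was Mif4gd, a partner of Slbp in translation (-0.74 and -0.77). Eri1, the exonuclease that trims the stem-loop and degrades histone mRNA, rose in both, with 189, 171 and 177 CPM in median LP, 173, 161 and 164 CPM in early LP and 112, 117 and 104 CPM in HPC (log2 0.69 ± 0.07 and 0.58 ± 0.07). Its HPC libraries lay under all others.

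Histone genes outside the clusters make tailed mRNA and are mostly not tied to S phase. Of 11 tested, 1 rose and none fell in median LP against early LP by edgeR or DESeq2, with 1 lower at an unadjusted p under 0.05. That gene, H1f0, encodes the linker histone H1.0 of resting and differentiating cells and had 182, 158 and 123 CPM in median LP, 107, 113 and 103 CPM in early LP and 67.8, 64.0 and 75.6 CPM in HPC. The 3 groups did not overlap, with log2 changes of 0.52 ± 0.12 in median LP against early LP (edgeR adjusted p = 0.0482), 1.16 ± 0.12 in median LP against HPC and 0.64 ± 0.12 in early LP against HPC. The order of the group means was the reverse of that of Hist1h1a, in which early LP overlapped HPC. The call between the LP groups was lost under several settings given below. The replacement histone gene H2afz had means of 782, 815 and 858 CPM in median LP, early LP and HPC and H3f3b had 917, 798 and 837 CPM, with no call in any comparison.

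Against HPC, 6 of these 11 genes fell in each LP group, and 2 rose in early LP and 1 in median LP. The share called in either direction was 63.6% in median LP and 72.7% in early LP, no higher than the 73.8% and 73.2% of all genes tested. The share called lower was 54.5% in each, against 37.7% and 37.9% of all genes. The share called higher was 9.09% and 18.2%, against 36% and 35.3%. H2afx, the H2A variant of the DNA damage response, fell (log2 -0.54 in median LP and -0.75 in early LP), as did H3f3a (-0.50 and -0.50), the centromeric histone gene Cenpa (-0.86 and -0.97) and the macroH2A genes H2afy (-1.77 and -1.58) and H2afy2 (-3.24 and -3.91). H1fx, a linker histone gene, had 0.231, 0.174 and 0.0403 CPM in median LP, 0.205, 0.254 and 0.308 CPM in early LP and 12.2, 12.7 and 19.3 CPM in HPC. It was near 0 in both LP groups and fell by 6.50 ± 0.33 (log2) in median LP and by 5.83 ± 0.31 in early LP.

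Of 25 tested histone chaperones and deposition factors, none was called in median LP against early LP by edgeR, with a median log2 change of -0.04, while 4 were lower at an unadjusted p under 0.05 and DESeq2 called 1 lower. Against HPC 20 fell and 3 rose in median LP, and 21 fell and 3 rose in early LP. The share called lower was 80% and 84%, where 37.7% and 37.9% of all genes tested were called lower and 36% and 35.3% higher. The importin Ipo4 had means of 22.9, 24.1 and 84.8 CPM in median LP, early LP and HPC (log2 -1.89 and -1.81 for the LP groups against HPC). The H3-H4 chaperone gene Asf1a had 35.0, 33.8 and 68.2 CPM (-0.96 and -1.01), the H3-H4 co-chaperone gene Dnajc9 had 87.6, 91.1 and 169 CPM (-0.95 and -0.89) and the H2A-H2B chaperone gene Nap1l1 had 475, 472 and 888 CPM (-0.90 and -0.91). All 4 fell in both LP groups.

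Of 40 genes of S phase entry and DNA replication, 3 fell in median LP against early LP and none rose (by DESeq2 7 and none). That is 7.5% called lower, where 0.997% of all genes tested were called lower and 1.48% higher. At an unadjusted p under 0.05 the edgeR test had 13 lower and none higher. In 18 genes every median LP library was below every early LP library and in 1 above, against 13.9% and 12.4% of all genes tested. Of the 40, 34 had a negative change, with a median of -0.13. The thymidine kinase gene Tk1 had 36.1, 33.9 and 33.7 CPM in median LP, 45.9, 54.7 and 48.6 CPM in early LP and 82.6, 77.4 and 104 CPM in HPC (log2 -0.52 ± 0.11 in median LP against early LP, edgeR adjusted p = 0.0284). The helicase subunit gene Mcm7 (log2 -0.27 ± 0.06) and the GINS subunit gene Gins2 (-0.33 ± 0.08) were the other 2. These 3 are named because they are the whole count, after their values were seen. Their calls were not stable: with any 1 library left out 0 to 1 gene of the 4 supply lists was called lower in median LP against early LP, and by limma or with the replicate block none was. Against HPC 25 of the 40 fell and 6 rose in median LP, and 19 fell and 8 rose in early LP. That is 77.5% and 67.5% called in either direction, near the 73.8% and 73.2% of all genes tested. The share called lower was 62.5% and 47.5%, against 37.7% and 37.9% of all genes. The share called higher was 15% and 20%, against 36% and 35.3%.

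Within that list the cyclin E gene Ccne1 had means of 25.96, 29.9 and 84.9 CPM in median LP, early LP and HPC and fell in both LP groups (log2 -1.71 and -1.51), as did E2f2 (-1.61 and -1.23), the cyclin A gene Ccna2 (-0.71 and -0.81) and the polymerase alpha subunit gene Pola2 (-0.97 and -0.89). Cdc45, which encodes a part of the replicative helicase, rose in both (0.75 and 0.85), with 158, 157 and 160 CPM in median LP, 173, 169 and 170 CPM in early LP and 93.8, 94.7 and 94.8 CPM in HPC. As a sum the 40 genes lay at 88.3 to 91.5% of the HPC mean in median LP, at 94.8 to 95.5% in early LP and at 98.7 to 102% in HPC. The clustered histone genes spread much further in the same libraries, at 77.1%, 60.6% and 27.4% of the HPC mean in median LP, 87.7 to 103% in early LP and 76.2 to 124% in HPC.

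**Figure D5:**
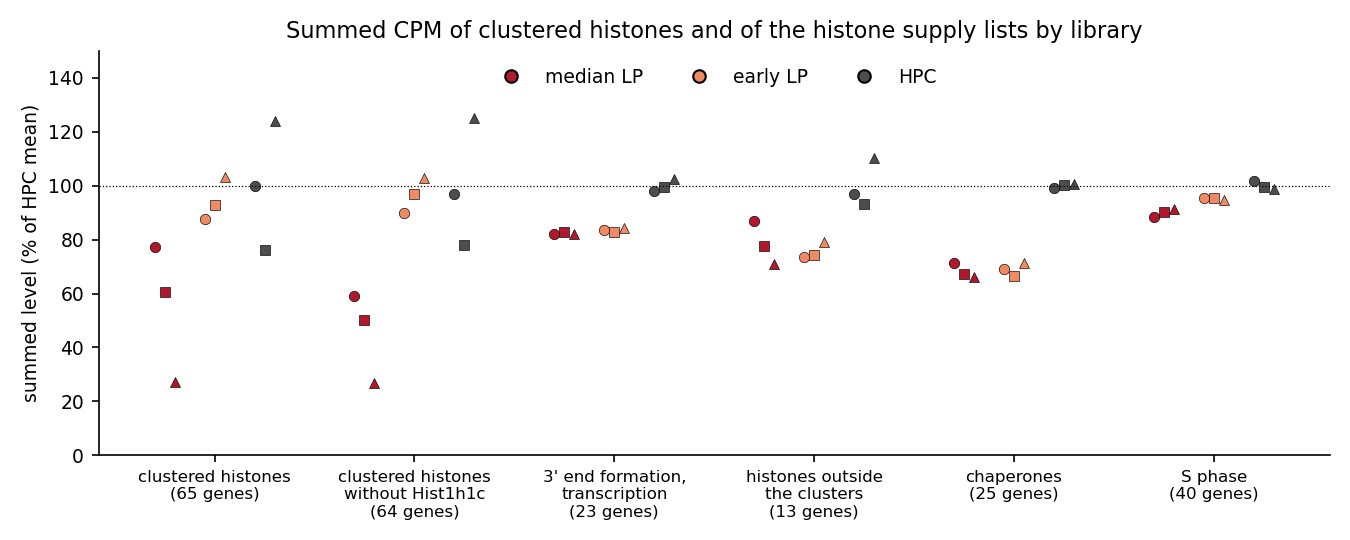
Summed CPM by library as a percentage of the HPC mean, for the clustered histone genes, the same without Hist1h1c and the 4 lists of histone supply, with median LP, early LP and HPC from left to right and libraries 1 to 3 as circle, square and triangle. The clustered genes spread between 27.4% and 124%, while the S phase genes stay between 88.3% and 102%.

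The libraries of a group were not alike for the clustered genes. Median LP 3 was the lowest of its group in 42 of the 51 tested members, and HPC 3 was the highest of its group in 42. The slope of a library's deviations on gene length, in log2 units for each log2 of length, was -0.05, 0.03 and 0.03 in median LP, 0.05, -0.01 and -0.04 in early LP and 0.06, 0.08 and -0.13 in HPC, so short genes ran high in HPC 3. No such slope set median LP 3 apart from median LP 2. With median LP 3 left out, 11 members were still called lower against early LP, all of them among the 23, and 32 against HPC, all among the 37.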

How the data were processed

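Trizol RNA was turned into libraries with the Illumina TruSeq RNA kit, per the labels' protocols, and per the submitters' processing notes reads were aligned with TopHat2 2.0.6 to mm10. Which program and annotation made the values, and whether strand was used, is not given in the sources used here. The deposited table gives, per the file headers, FPKM and an estimated count for each transcript and library. Transcripts were summed by gene, and estimated counts were rounded to whole numbers.

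The deposited estimated counts are whole multiples of a step of 0.867 to 1.23 for 89.6 to 91.3% of values (tolerance 0.05), from which whole fragments were recovered (20.6 to 28.4 M a library, deposited totals 21.9 to 25.8 M). Intervals and floors from such counts would cover counting error only.

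The main test was edgeR 4.0.16 (R 4.3.3, quasi-likelihood, TMM, filterByExpr, two-sided, Benjamini-Hochberg over 12837 genes, called under 0.05) on all 9 libraries in 1 fit, with a biological coefficient of variation of 9.81%. Alternatives used DESeq2 1.42.0 scaling and test, upper quartile scaling, other filters, recovered fragments, limma 3.58.1 on log2(FPKM + 1) and log2(FPKM + 0.1), a length covariate, a replicate block and left-out libraries. On simulated data for median LP against early LP the test recovered 100 of 100 genes changed by 2 and 93 of 100 changed by 1 (log2), with 10 calls among 12416 unchanged genes. The changed genes were drawn only from genes with a mean over 1 CPM. The recovered numbers therefore do not describe members at lower levels.

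Members and lists were chosen with earlier results of these data known. Named members are the 4 with the highest FPKM of each type, the 6 called with the largest change in each comparison and direction at 1 CPM or more, called members that share a locus, and the longest and shortest tested, and from each supply list the 4 with the smallest adjusted p in each comparison with HPC plus 8 genes named by symbol. Genes outside this rule (Hist2h2ac, Hist2h2aa2, Hist1h2ae, Hist1h2br, Hist1h4b, Mcm7, Gins2, Tk1 and the markers) were named for a pair, a copy, a sequence form, a count or the check of the cells.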

Additional observations from a re-analysis of the deposited data

How the results depend on the processing

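No change of a named member that was called in the fit described took the other sign under an alternative. Of changes that were not called, 17 crossed 0 in 48 values, among them Hist1h1c in median LP against early LP (-0.31 without median LP 1) and against HPC (0.42 without median LP 3), Hist1h2bc in median LP against HPC (0.03 without median LP 3), and in the same comparison Hist1h4i (0.12 without median LP 3) and Hist1h4n (0.59 without HPC 3). Of 2643 values of single genes under an alternative, 48 gained a call and 44 lost one. In median LP against early LP the 23 members called lower were 36 with a length covariate and 9 to 13 with 1 library left out, and 18 to 27 under the other scalings, filters and tests. Members called higher there, 0 in the fit described, were 1 by the DESeq2 test, 2 with a length covariate and 0 to 2 with a library left out. In early LP against HPC, 1 called higher became 3 by limma on log2(FPKM + 1), 3 with a length covariate, 0 when members that share a locus were left out, and 1 to 6 with a library left out (6 without HPC 3). In median LP against HPC the 37 called lower were 31 to 39 and the 0 called higher 0 to 1 with a library left out.

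Replicate numbers are shared between groups but did not pair the libraries. Deviations of genes from their group mean correlated at -0.32 to 0.20 between same-numbered libraries of different groups. By these deviations, 0 of 9 libraries correlated best, among libraries of other groups, with their own number. With the replicate block 12 members were called lower in median LP against early LP, and of the supply lists 0 were lower and 0 higher.

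In the 4 supply lists, 3 genes were lower in median LP against early LP. That count was 1 with upper quartile scaling, 8 by the DESeq2 test, 0 by limma with either pseudocount, 13 with a length covariate, 7 with the groups compared alone and 0 to 1 with a library left out. The 1 called higher (H1f0) was 0 with DESeq2 size factors, upper quartile scaling, a filter of 1 CPM in 3 libraries and limma, 2 with a length covariate and 0 to 1 with a library left out. Without the highest member of a type, the log2 ratio of sums was -2.07 for H1 in median LP against early LP, -1.79 for H1 against HPC and -0.40 for H2B against early LP. FPKM sums gave -0.89 for H4 in median LP against early LP, and for H4 in early LP against HPC 0.24, a reversal of -0.07 in CPM. Upper quartile scaling moved the calls of all genes in early LP against HPC to 4179 higher and 5341 lower, against 4530 and 4869, and in median LP against HPC to 4186 and 5411, against 4624 and 4845. The cause of these shifts was not tested. Members had few fragments, and how far this limits their calls was not tested.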
